A study of Mus musculus with 8 samples.

Results

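The 40 genes described here encode the machinery of mitosis and of the G2/M transition, the step at which a cell with replicated DNA commits to divide. They were taken by symbol from the gene count table, in which all 40 of the 40 symbols were found among 43430 gene IDs. All 40 also passed the filter on low counts that left 12689 genes for testing. The RNA came from C57BL/6 mice on postnatal day 15, from lung cells sorted by CD31, a surface protein of endothelial cells. In the KO group QPC had been deleted in endothelial cells; it is part of complex III of the mitochondrial respiratory chain and is taken here as the product of Uqcrq. The WT group carried the wild-type genotype, and the label protocols give the same tamoxifen course, postnatal days 0 to 4, for both groups. Each group had 4 libraries, and the driver of the endothelial recombinase is not given in the sources used here. Whether each library came from its own animal is not stated in the labels, and the p-values therefore measure only the spread between libraries, part of which may be technical.

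Entry into mitosis is driven by the kinase CDK1 bound to cyclin A or B, with the Aurora and Polo-like kinases beside it. Chromosomes are then condensed and attached through kinetochores to the spindle, a checkpoint holds the cell until every kinetochore is attached, and the anaphase-promoting complex destroys cyclin B and securin so that the sister chromatids part. Transcripts of these genes are low in resting cells and accumulate late in the cycle. Most endothelial cells of an adult lung are quiescent, whereas the vessel bed still grows in the early postnatal weeks, and in sorted bulk RNA a larger share of dividing cells and more RNA per dividing cell cannot be told apart.

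Total counts were 11209714, 12703489, 12932454 and 13981329 in KO replicates 1 to 4, and 11918741, 11607842, 6407924 and 11951816 in WT replicates 1 to 4. Uqcrq, measured first as a check of the labels, had 1.59, 15.6, 9.57 and 13.97 CPM (TMM-normalised CPM, a read count scaled to library size) in KO replicates 1 to 4 and 26.3, 24.5, 26.8 and 31.5 CPM in WT replicates 1 to 4, so every KO library lay below every WT library. Such full separation downward was seen for 4.67% of all genes tested. The log2 fold change of Uqcrq, KO over WT, was -1.42 and did not pass (SE 0.53, edgeR adjusted p = 0.179). KO replicate 1 had the lowest Uqcrq level. Over all genes tested, WT replicate 3, which also had the smallest total, lay apart from the other 7 libraries on the first principal component, which held 28.3% of the variance. KO replicate 1 lay at the other end of that component and apart on the second. For some results that moved when either of them was left out, the value without it is given too.

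Promoters of late cell cycle genes carry the cell cycle genes homology region (CHR), a short element bound by the MuvB core of the DREAM complex in resting cells and of B-MYB and FOXM1 complexes in G2, often beside CCAAT boxes bound by NF-Y. RefSeq promoter windows of GRCm38.p6 were found for 34 of the 40 genes, and each window was searched on both strands for the CHR letters TTTGAA or TTCGAA and for the box CCAAT, whose matches did not overlap a CHR match in any member. The stretches below run from 120 bases before to 30 bases after the transcription start, 5′ to 3′ on the gene's strand, with whole matches to either element in capitals. They show both genes that passed the test (Plk1 and Ckap2l). Cdk1, Ccnb2 and Ube2c, with log2 fold changes of 1.06, 1.60 and 1.43, are shown as members with both elements. Other members changed as much without both: Kif2c (1.55) held no CCAAT box and Ccnb1 (1.36) no CHR match. The stretches also show members with small differences (Bub3 and Hmmr) and 1 promoter without a match (Birc5). They lie at chr7:122159315-122159464 on the plus strand (Plk1), chr2:129297183-129297332 on the minus strand (Ckap2l), chr10:69352883-69353032 on the minus strand (Cdk1), chr9:70421525-70421674 on the minus strand (Ccnb2), chr2:164769809-164769958 on the plus strand (Ube2c), chr7:131560250-131560399 on the plus strand (Bub3), chr11:40733408-40733557 on the minus strand (Hmmr) and chr11:117849117-117849266 on the plus strand (Birc5).
Plk1: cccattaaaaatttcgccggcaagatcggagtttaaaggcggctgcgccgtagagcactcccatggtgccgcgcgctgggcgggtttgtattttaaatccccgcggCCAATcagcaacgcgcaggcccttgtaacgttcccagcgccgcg
Ckap2l: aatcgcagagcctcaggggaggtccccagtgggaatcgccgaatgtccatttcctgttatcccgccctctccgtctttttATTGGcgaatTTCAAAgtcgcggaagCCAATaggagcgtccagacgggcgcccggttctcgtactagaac
Cdk1: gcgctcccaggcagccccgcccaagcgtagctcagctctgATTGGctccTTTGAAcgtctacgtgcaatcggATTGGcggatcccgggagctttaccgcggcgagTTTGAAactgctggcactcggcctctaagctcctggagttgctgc
Ccnb2: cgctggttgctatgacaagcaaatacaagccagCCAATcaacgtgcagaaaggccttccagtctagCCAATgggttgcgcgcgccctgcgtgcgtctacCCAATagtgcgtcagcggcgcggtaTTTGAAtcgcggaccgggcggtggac
Ube2c: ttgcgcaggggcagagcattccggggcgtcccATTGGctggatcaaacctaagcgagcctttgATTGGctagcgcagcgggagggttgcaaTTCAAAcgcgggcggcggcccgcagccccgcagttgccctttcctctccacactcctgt
Bub3: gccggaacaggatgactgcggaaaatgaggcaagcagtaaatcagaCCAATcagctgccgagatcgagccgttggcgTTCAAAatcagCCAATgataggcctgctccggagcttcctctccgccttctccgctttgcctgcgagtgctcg
Hmmr: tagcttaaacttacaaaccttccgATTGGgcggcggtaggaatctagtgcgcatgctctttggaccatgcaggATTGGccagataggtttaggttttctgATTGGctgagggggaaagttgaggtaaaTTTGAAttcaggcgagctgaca
Birc5: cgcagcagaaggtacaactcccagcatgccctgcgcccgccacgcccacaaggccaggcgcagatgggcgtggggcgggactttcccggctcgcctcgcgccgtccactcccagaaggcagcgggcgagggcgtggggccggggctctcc
The CHR match of Plk1 began 31 bases after the start and so lies past the stretch shown, which holds its single CCAAT box. Cdk1 had a CHR match on each side of a CCAAT box, and Ccnb2 had 3 CCAAT boxes in a row before a CHR match just after the start.

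From 100 bases before to 50 after the start, 26 of the 34 promoters (76.5%) held a CHR match, against 5.35% of the 9765 tested genes with a window. CCAAT boxes stood in 23 of 34 (67.6%), against 26.2% of tested genes, and both elements stood in 20 of 34 (58.8%), against 1.77%. No member held either E2F site searched (TTTCGCGC or TTTGGCGC) in that window, against 0.819% of tested genes and 20% of 35 DNA replication genes. Of 38 CHR matches in the full windows 27 lay within 50 bases of the start, as the plot of motif positions shows. The median log2 fold change was 0.87 over the 26 with a CHR match near the start and 0.85 over the 8 without one, beside 0.05 over the 496 tested genes that are not members but hold a match. It was 1.09 over the 20 members with both elements, beside 0.14 over 153 tested genes with both that are not members. Those 20 include Plk1 and Ckap2l, but also Cenpf (0.20), Bub3 (0.12) and Hmmr (0.004). Kif2c (1.55), Ncapg (1.41) and Ccnb1 (1.36) are not among them. These differences between promoter groups were not tested. A match is a string of letters and no evidence of binding.

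**Figure D1:**
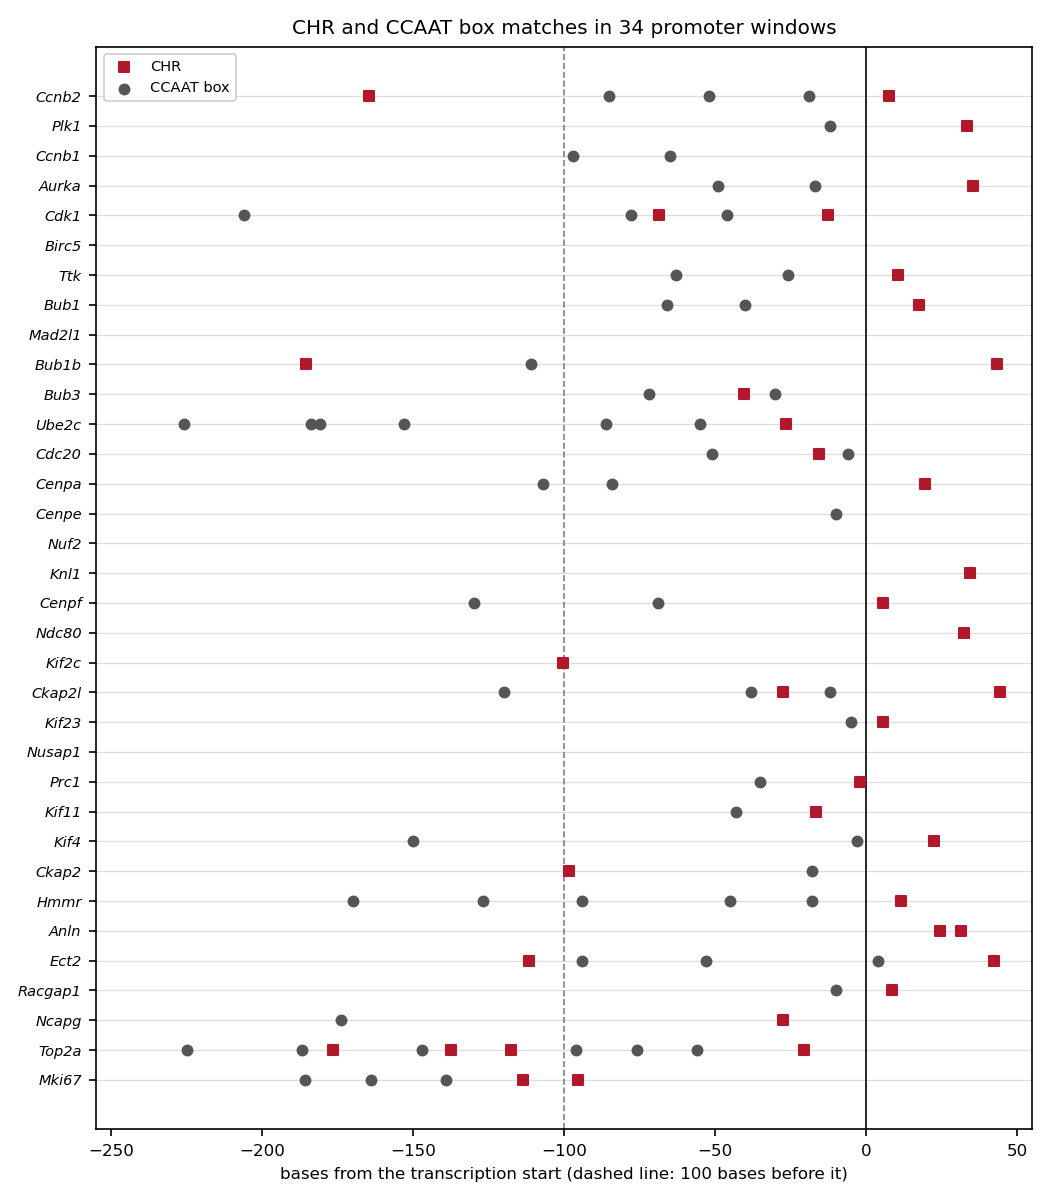
Positions of CHR matches (red squares) and CCAAT boxes (grey circles) in bases from the transcription start, for the 34 members with a RefSeq promoter window, ordered by role. Of the 38 CHR matches 27 lie within 50 bases of the start, and the promoters of Birc5, Mad2l1, Nuf2 and Nusap1 hold neither element.

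Transcripts of the mitotic genes were higher on average in KO than in WT cells, but few passed the test once adjusted over all genes. Together the 40 genes summed to 1346, 2047, 1702 and 3127 CPM in KO replicates 1 to 4 and to 966, 1480, 1140 and 1189 CPM in WT replicates 1 to 4. KO replicate 4 was far above every other library, and KO replicate 1 fell below WT replicate 2, so the groups overlapped. The sums averaged 2056 ± 769 CPM in KO and 1194 ± 214 CPM in WT (SD, n = 4 each), a ratio of 1.72. In the test over all genes 2 of the 40 genes were higher in KO (Plk1 and Ckap2l) and 0 were lower (edgeR quasi-likelihood test, Benjamini-Hochberg adjusted p under 0.05). That is 5.0% of the members, beside 2.25% of all genes tested that were called higher and 1.39% that were called lower.

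The direction was shared more widely than the calls. The fitted log2 fold change of KO over WT was above 0 for 39 of the 40 genes, against 51.0% of all genes tested, and its median was 0.85 against 0.01 over all genes. It ran from -0.02 for Ndc80 to 1.60 for Ccnb2 and was at least 1 for 15 members. Without adjustment, 21 members had a p under 0.05 and were higher and 0 were lower, beside 8.69% and 6.53% of all genes. DESeq2 called 5 members higher and 0 lower, beside 3.29% and 2.92% of all genes, and limma voom called 0 higher and 0 lower, beside 2.40% and 1.51%. All 4 KO libraries lay above all 4 WT libraries for 8 members (Ube2c, Plk1, Ccna2, Cdk1, Aurka, Ccnb2, Ckap2l and Kif2c), which is 20% of the list beside 6.94% of all genes, and 0 members lay wholly below, beside 4.67%. The members were chosen as a list of 1 process, so they are not independent of each other.

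The median and the number of calls depended on single libraries. The median log2 fold change was 0.56 without KO replicate 4, 1.04 without KO replicate 1 and 0.92 with both KO replicate 1 and WT replicate 3 left out. The number of members called higher was 0 without KO replicate 2, KO replicate 4 or WT replicate 3, beside 1.56%, 1.72% and 1.66% of all genes. It was 1 without KO replicate 3, WT replicate 1 or WT replicate 4, beside 1.33%, 1.94% and 1.51% of all genes. It was 3 without WT replicate 2, beside 1.66%. Without KO replicate 1 it was 6 (Top2a, Ccna2, Plk1, Cdc20, Kif23 and Anln), beside 1.95%. With KO replicate 1 and WT replicate 3 both left out it was 5 (Ccnb1, Ccnb2, Plk1, Kif23 and Anln), beside 1.59%.

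**Figure D2:**
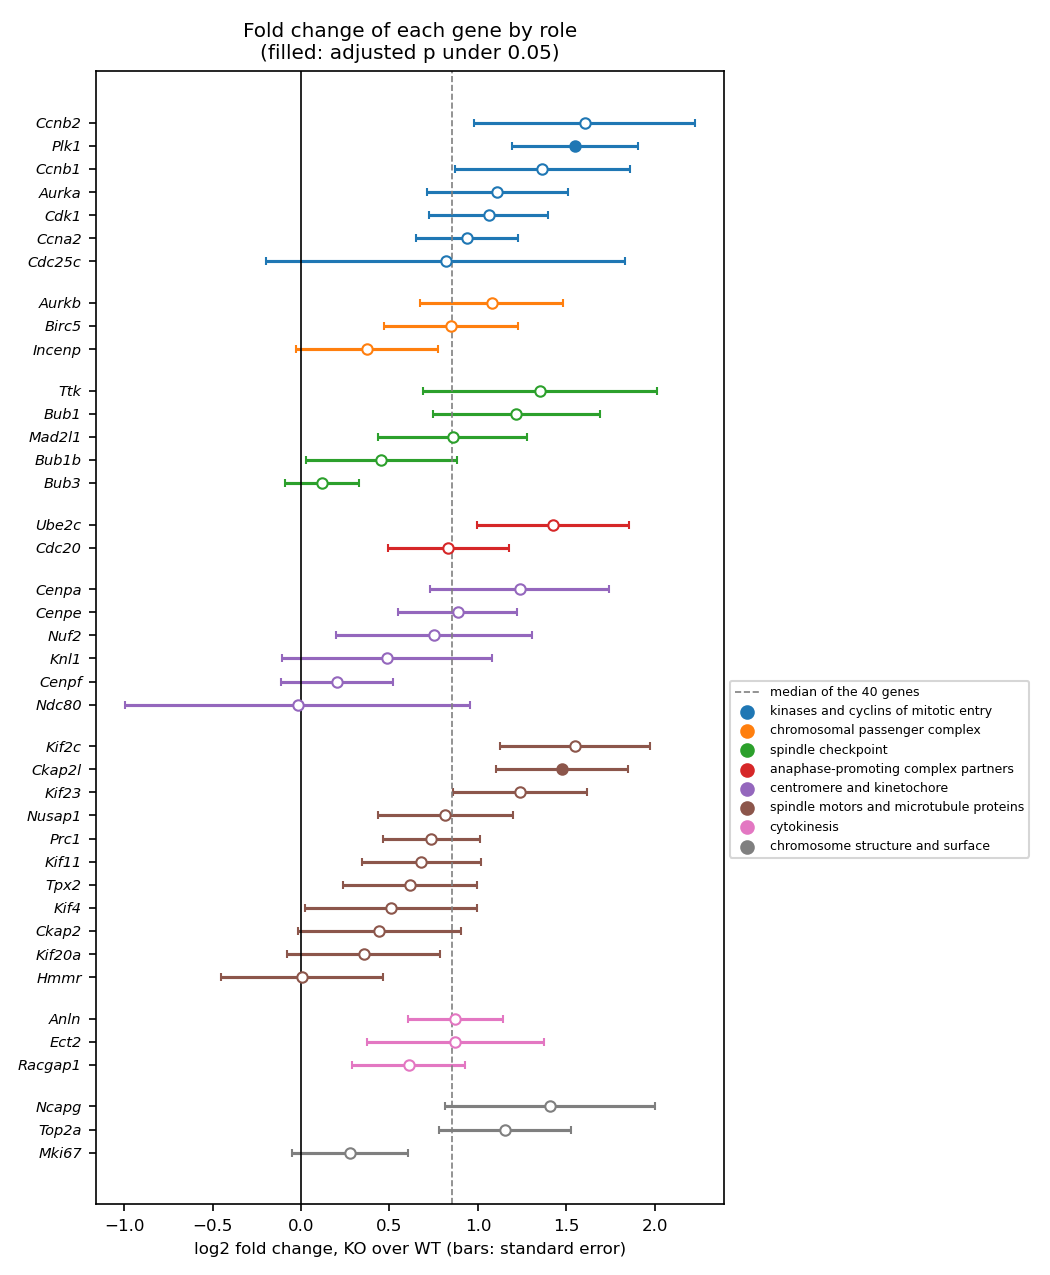
Fitted log2 fold change of KO over WT for each of the 40 genes, grouped by role, with standard errors as bars. Filled points passed at an adjusted p under 0.05 (Plk1 and Ckap2l), the dashed line marks the median of 0.85, and 39 of the 40 points lie to the right of 0.

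The kinases and cyclins of mitotic entry had the clearest separation between the groups. All 7 had a fold change above 0 with a median of 1.11, and 5 of them (Plk1, Ccna2, Cdk1, Aurka and Ccnb2) had every KO library above every WT library. Plk1 (ENSMUSG00000030867, chr7:122159439-122169873, plus strand, GRCm38), the Polo-like kinase that acts at centrosomes, kinetochores and the cleavage site, had 26.4, 53.0, 30.1 and 49.96 CPM in KO replicates 1 to 4, against 10.9, 15.8, 9.12 and 18.5 CPM in WT replicates 1 to 4. The lowest KO library was above the highest WT library, and KO replicates 2 and 4 were the highest. Plk1 rose by 1.55 on the log2 scale (SE 0.36, edgeR adjusted p = 0.0217), with means of 39.9 ± 13.5 CPM in KO and 13.6 ± 4.34 CPM in WT (SD, n = 4 each). The call was lost without KO replicate 2 (edgeR adjusted p = 0.108), KO replicate 4 (0.0883), WT replicate 1 (0.0595) or WT replicate 3 (0.0518), in a range of 0.00361 to 0.108 over 19 alternatives. Exons of Plk1 share 156 bases with Gm44985 on the opposite strand, and with the strand setting of the counting not given, reads from the 2 cannot be told apart there.

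Cdk1 encodes the kinase at the centre of mitotic entry. It had 58.4, 57.6, 53.1 and 118 CPM in KO replicates 1 to 4, against 45.5, 36.2, 15.2 and 40.3 CPM in WT replicates 1 to 4. The groups did not overlap, and KO replicate 4 was far above the other KO libraries. The log2 fold change was 1.06 (SE 0.34, edgeR adjusted p = 0.106). Ccnb1, whose product cyclin B1 activates CDK1, had 22.9, 38.0, 37.5 and 65.8 CPM in KO replicates 1 to 4, against 5.19, 8.54, 31.1 and 19.3 CPM in WT replicates 1 to 4. Here WT replicate 3, which had the lowest levels of Ccnb2, Plk1, Cdk1 and Ccna2, lay above KO replicate 1, and the log2 fold change of 1.36 did not pass (SE 0.50, edgeR adjusted p = 0.172). It was 1.90 without WT replicate 3 and passed at 2.10 with KO replicate 1 and WT replicate 3 both left out (edgeR adjusted p = 0.0361). Ccnb2, the second B-type cyclin, had the largest fitted fold change of the 40 genes with all libraries in. Its 37.8 to 77.3 CPM in KO stood against 1.94 to 31.3 CPM in WT, and the spread among WT libraries left it at a log2 fold change of 1.60 (SE 0.62, edgeR adjusted p = 0.246). Without WT replicate 3, where Ccnb2 had 13 counts, the value was 1.24, the 8th of the 40, and the largest was that of Ncapg at 2.05. With KO replicate 1 left out as well Ccnb2 passed at 1.40 (edgeR adjusted p = 0.0321). Ccna2 (cyclin A2) had 53.8 to 130 CPM in KO and 25.6 to 52.3 CPM in WT, and Aurka, the spindle pole kinase, 20.3 to 34.1 CPM in KO and 8.37 to 20.3 CPM in WT. For both genes the lowest KO library lay only just above the highest WT library. Exons of Ccna2 overlap those of Exosc9, counted at 17.6 to 33.2 CPM, on the other strand over 12.5% of their bases. Cdc25c, a phosphatase that activates CDK1, was near the bottom of the list at 3.88 to 16.4 CPM in KO and 0.836 to 7.47 CPM in WT, and its groups overlapped.

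The chromosomal passenger complex corrects faulty attachments of chromosomes to the spindle, and 0 of its 3 members passed. Aurkb, its kinase, had 23.1, 33.3, 30.1 and 65.5 CPM in KO replicates 1 to 4, against 25.3, 23.4, 15.1 and 8.31 CPM in WT replicates 1 to 4. KO replicate 1 lay below WT replicates 1 and 2, and the log2 fold change was 1.08 (SE 0.41, edgeR adjusted p = 0.185). Birc5 (survivin) had a log2 fold change of 0.85 and Incenp, the scaffold of the complex, 0.37.

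Over the 5 spindle checkpoint genes the median log2 fold change was 0.86, with 0 called, and the values spanned most of the range seen over the list. Bub1, a kinase that recruits the checkpoint to kinetochores, had 12.9, 25.9, 25.5 and 45.6 CPM in KO replicates 1 to 4, against 10.04, 17.3, 15.1 and 4.94 CPM in WT replicates 1 to 4. KO replicate 1 lay within the WT range, and the log2 fold change was 1.22 (SE 0.47, edgeR adjusted p = 0.204). Bub3, a partner of BUB1 and BUBR1 in the checkpoint, had 70.0, 111, 109 and 133 CPM in KO replicates 1 to 4, against 104, 76.1, 99.9 and 109 CPM in WT replicates 1 to 4. Its groups overlapped almost fully, with a log2 fold change of 0.12 (SE 0.21, edgeR adjusted p = 0.901) that turned to -0.02 without KO replicate 4. Ttk, the kinase MPS1 that starts the signal, had 7.40 to 34.9 CPM in KO and 2.39 to 13.4 CPM in WT with a log2 fold change of 1.35. Mad2l1, the inhibitor of CDC20, had 0.86 and Bub1b, which encodes BUBR1, 0.45 on the same scale.

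Partners of the anaphase-promoting complex include Ube2c, its ubiquitin-conjugating enzyme, and Cdc20, its activator in mitosis. Ube2c had 53.9, 46.7, 52.1 and 82.1 CPM in KO replicates 1 to 4, against 39.1, 25.5, 5.98 and 16.3 CPM in WT replicates 1 to 4. Every KO library was above every WT library, and WT replicate 3 was the lowest of all 8. The log2 fold change was 1.43 (SE 0.43, edgeR adjusted p = 0.0932), and the gene passed without WT replicate 1 (edgeR adjusted p = 0.0245). Ube2c shares 592 exon bases with Tnnc2 on the other strand, which was counted at 0.0836 CPM or less in every library. Cdc20 had 27.6 to 98.2 CPM in KO and 24.2 to 53.6 CPM in WT, with a log2 fold change of 0.83.

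Centromere and kinetochore genes were the role with the lowest median, 0.62 over 6 genes, and 0 were called. Cenpe, the kinetochore motor that moves chromosomes to the spindle equator, had 25.5, 33.97, 33.1 and 61.3 CPM in KO replicates 1 to 4, against 17.5, 28.1, 15.5 and 21.98 CPM in WT replicates 1 to 4. Only KO replicate 1 fell inside the WT range, and the log2 fold change was 0.89 (SE 0.34, edgeR adjusted p = 0.193). Ndc80 and Nuf2 encode partners in the complex that grips microtubule ends. Nuf2 had a log2 fold change of 0.75 and Ndc80 -0.02, which became 1.05 and 0.40 without KO replicate 1. Ndc80 had 0 counts in KO replicate 1, which allows a level of up to 0.281 CPM for counting error, and 14.6 to 22.7 CPM in the other 3 KO libraries, against 10.3 to 19.2 CPM in WT. Over 19 alternatives the log2 fold change of Ndc80 ran from -1.41 to 0.41. Cenpa, the histone H3 variant of centromeres, had 46.9 to 74.7 CPM in KO and 5.68 to 54.9 CPM in WT, with a log2 fold change of 1.24. Knl1, the kinetochore scaffold, had 0.49 and Cenpf, a large kinetochore protein, 0.20.

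The largest role was that of spindle motors and microtubule proteins, with 11 genes, a median of 0.68 and 1 call. Ckap2l (ENSMUSG00000048327, chr2:129268210-129297212, minus strand, GRCm38), which encodes a protein of the mitotic spindle, had 42.8, 31.6, 30.4 and 62.9 CPM in KO replicates 1 to 4, against 10.04, 21.6, 8.82 and 19.7 CPM in WT replicates 1 to 4. Every KO library was above every WT library, and KO replicate 4 was again the highest. Ckap2l rose by 1.48 on the log2 scale (SE 0.38, edgeR adjusted p = 0.0383), with means of 41.9 ± 15.1 CPM in KO and 15.0 ± 6.53 CPM in WT (SD, n = 4 each). Among the 8 fits that left out 1 library, the call held only without WT replicate 2 (edgeR adjusted p = 0.0390). In the other 7 the edgeR adjusted p was 0.0679, 0.0553, 0.0561 and 0.172 without KO replicates 1 to 4, and 0.0941, 0.0851 and 0.0555 without WT replicates 1, 3 and 4. With KO replicate 1 and WT replicate 3 both left out it was 0.121. Its exons overlap those of Gm14024 on the opposite strand by 181 bases, and Gm14024 had 0 counts in every library.

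Kif2c, a kinesin that takes microtubules apart at kinetochores, came closest to the threshold of the genes that did not pass. It had 16.6 to 44.0 CPM in KO and 7.50 to 11.8 CPM in WT, without overlap, and a log2 fold change of 1.55 (SE 0.42, edgeR adjusted p = 0.0536). Kif23, a motor of the midzone between the parting chromosomes, had 27.3 to 97.1 CPM in KO and 13.9 to 31.8 CPM in WT (log2 fold change 1.24, SE 0.38, edgeR adjusted p = 0.0888). Kif23 passed without KO replicate 1 and with KO replicate 1 and WT replicate 3 both left out. The bundling protein Prc1 had a fold change of 0.74, the motor Kif11, which pushes spindle poles apart, 0.68, and the spindle assembly factor Tpx2 0.62, all on the log2 scale. Nusap1 had 0.81, Kif4, a chromosome-bound motor, 0.51, Ckap2 0.44 and Kif20a, a motor of the midzone, 0.35. Hmmr, a spindle protein also known as a hyaluronan receptor, had the same mean of 17.6 CPM in KO and in WT, although its promoter holds a CHR match and several CCAAT boxes. Exons of Kif20a overlap those of Cdc23 on the other strand over 29.3% of their bases, so the level of Kif20a is uncertain. The same holds for Kif4, with Pdzd11 over 15.1%, and for Prc1, with Rccd1 over 11.1%.

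Cytokinesis, the division of the cell body, was represented by Anln, Ect2 and Racgap1. Anln, which encodes the scaffold anillin of the contractile ring, had 53.5, 85.2, 61.9 and 118 CPM in KO replicates 1 to 4, against 42.7, 39.2, 57.6 and 34.9 CPM in WT replicates 1 to 4. KO replicate 1 lay below WT replicate 3, and the log2 fold change was 0.87 (SE 0.27, edgeR adjusted p = 0.0921). Anln passed without KO replicate 1 (edgeR adjusted p = 0.0467) and with KO replicate 1 and WT replicate 3 both left out (0.0348). Ect2, the exchange factor that switches on RhoA at the cleavage site, had 7.49 to 42.0 CPM in KO and 5.98 to 19.7 CPM in WT. Racgap1, part of the centralspindlin complex, had 68.9 to 146 CPM in KO and 27.3 to 81.2 CPM in WT.

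Among genes of chromosome structure and surface, Top2a, the topoisomerase that untangles sister chromatids, had 97.3, 156, 182 and 373 CPM in KO replicates 1 to 4, against 69.4, 122, 94.8 and 77.1 CPM in WT replicates 1 to 4. KO replicate 4 was far above the next KO library, while KO replicate 1 lay below WT replicate 2. The log2 fold change of 1.15 did not pass (SE 0.37, edgeR adjusted p = 0.146) but did without KO replicate 1 (1.39, edgeR adjusted p = 0.0261). Mki67, whose product Ki-67 coats mitotic chromosomes and is the common stain for cycling cells, had 79.0, 173, 126 and 166 CPM in KO replicates 1 to 4, against 67.6, 193, 100 and 87.8 CPM in WT replicates 1 to 4. WT replicate 2 was the highest of all 8 libraries, and the log2 fold change was 0.28 (SE 0.33, edgeR adjusted p = 0.828). Ncapg, a condensin subunit, had 9.42 to 32.0 CPM in KO and 3.26 to 16.0 CPM in WT, with a log2 fold change of 1.41, or 2.05 without WT replicate 3. Exons of Ncapg share 944 bases with Lcorl on the opposite strand. Lcorl had 35.3 to 44.3 CPM in KO and 9.62 to 58.6 CPM in WT, so the level of Ncapg is uncertain.

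**Figure D3:**
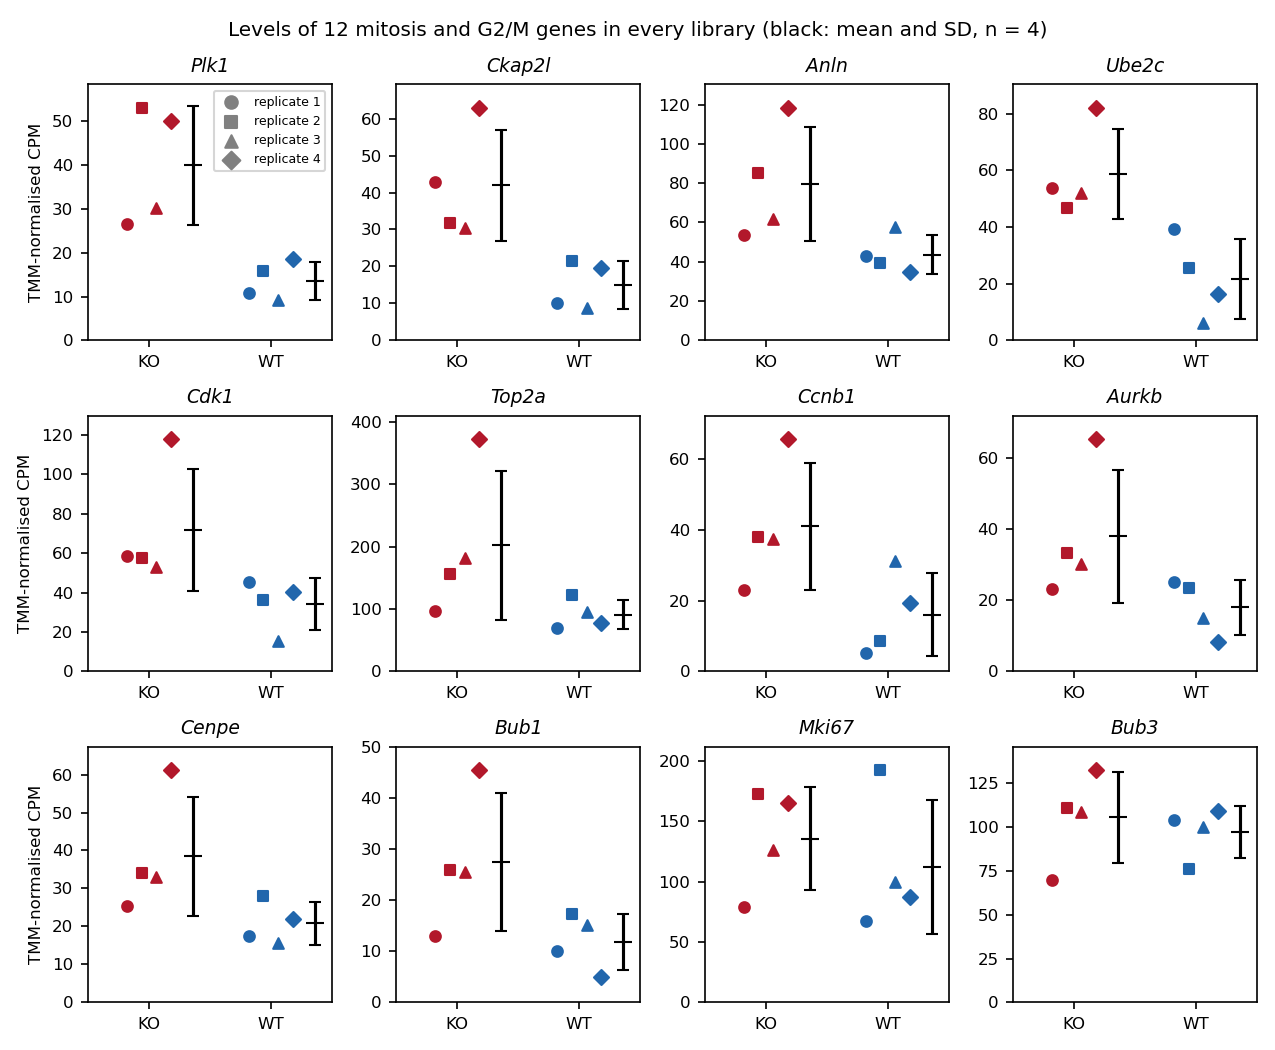
TMM-normalised CPM of 12 named members in every library, KO on the left in red and WT on the right in blue, with mean and SD (n = 4 each) in black. All KO libraries lie above all WT libraries for Plk1, Ckap2l, Ube2c and Cdk1, while the groups overlap for the other 8, among them Mki67 and Bub3.

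Levels per length of exon sequence (RPKM, the CPM divided by exon length in kilobases) placed the genes on 1 scale. In KO libraries Ccnb2 averaged 38.6 ± 12.7 RPKM and Cdc20 36.5 ± 16.3, and in WT libraries Ccnb2 averaged 12.6 ± 8.55 and Cdc20 20.4 ± 6.58 (SD, n = 4 each). Cdc20 was the highest member in WT, ahead of Bub3 at 13.9 ± 2.09 RPKM, but the spreads of Bub3, Ccnb2, Mki67 and Ccna2, the next in order, overlapped. Cdc25c was the lowest, at 1.59 ± 1.18 RPKM in KO and 0.901 ± 0.602 RPKM in WT.

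Within the KO group the genes moved together from library to library. KO replicate 4 was the highest of the 4 KO libraries for 35 of the 40 genes and above the mean of its genotype for 39, while KO replicate 1 was the lowest for 29. Over all genes tested KO replicate 4 was the highest for 25.7% and KO replicate 1 the lowest for 39.6%. KO replicate 2 held the top place for the 5 remaining genes, and KO replicate 3 the bottom place for 9. Every member had a higher level in KO replicate 4 than in KO replicate 3, 39 of 40 were higher in KO replicate 4 than in KO replicate 1, with a median ratio of 2.30, and 36 of 40 were higher in KO replicate 2 than in KO replicate 3. Set against the WT mean on the log2 scale, the median member was at 1.25, 1.92, 1.60 and 3.04 times that level in KO replicates 1 to 4 and at 0.841, 1.37, 1.00 and 1.08 times in WT replicates 1 to 4. All 40 genes lay above the WT mean in KO replicates 2 and 4, 38 in KO replicate 3 and 28 in KO replicate 1.

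Kendall's W, which is 1 where every gene ranks the libraries alike and 0 where the ranks cancel, was 0.677 over the 40 genes in KO and 0.106 in WT. Over all genes tested it was 0.00507 in KO and 0.0032 in WT. W from unrelated ranks is smaller the more genes are ranked, so values over lists of different length are not on 1 scale. The first principal component of the members' deviations held 79.9% of their variance in KO and 58.1% in WT, against 63.1% and 48.9% over all genes in KO and WT. All 5 checkpoint genes and all 3 cytokinesis genes placed the KO libraries in the same order, replicate 4 above 2 above 3 above 1 (W of 1.0 in each role). That order was shared by 24 of the 40 genes, against 8.45% of all genes tested. Mki67, Plk1, Aurka, Ndc80 and Ncapg had their highest KO level in replicate 2, and Prc1 and Ube2c their lowest there. In WT no library led over the whole list in this way, and the most common order was shared by 7 genes. Within single roles W in WT could be as large as in KO. WT replicate 2 was the highest for all 6 centromere and kinetochore genes, where W was 0.656 in KO and 0.678 in WT. Over the 3 genes of chromosome structure and surface W was 0.6 in KO and 0.733 in WT. With so few genes a large W arises easily by chance, and no W of a single role was tested. Over the whole list WT replicate 2 was above the mean of its genotype for 32 of the 40 genes, beside 55.2% of all genes tested. WT replicate 2 was the highest for 17 genes and WT replicate 3 for 11, and WT replicate 3 was the lowest for 17 and WT replicate 1 for 14. Kendall's W in KO was 0.398 without replicate 4 and 0.664 to 0.788 without any other library, and in WT it ran from 0.0494 to 0.182 over the same exercise. The difference in W between the genotypes was not tested. The median SD of a member on the log2 scale was 0.60 in KO and 0.64 in WT.

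**Figure D4:**
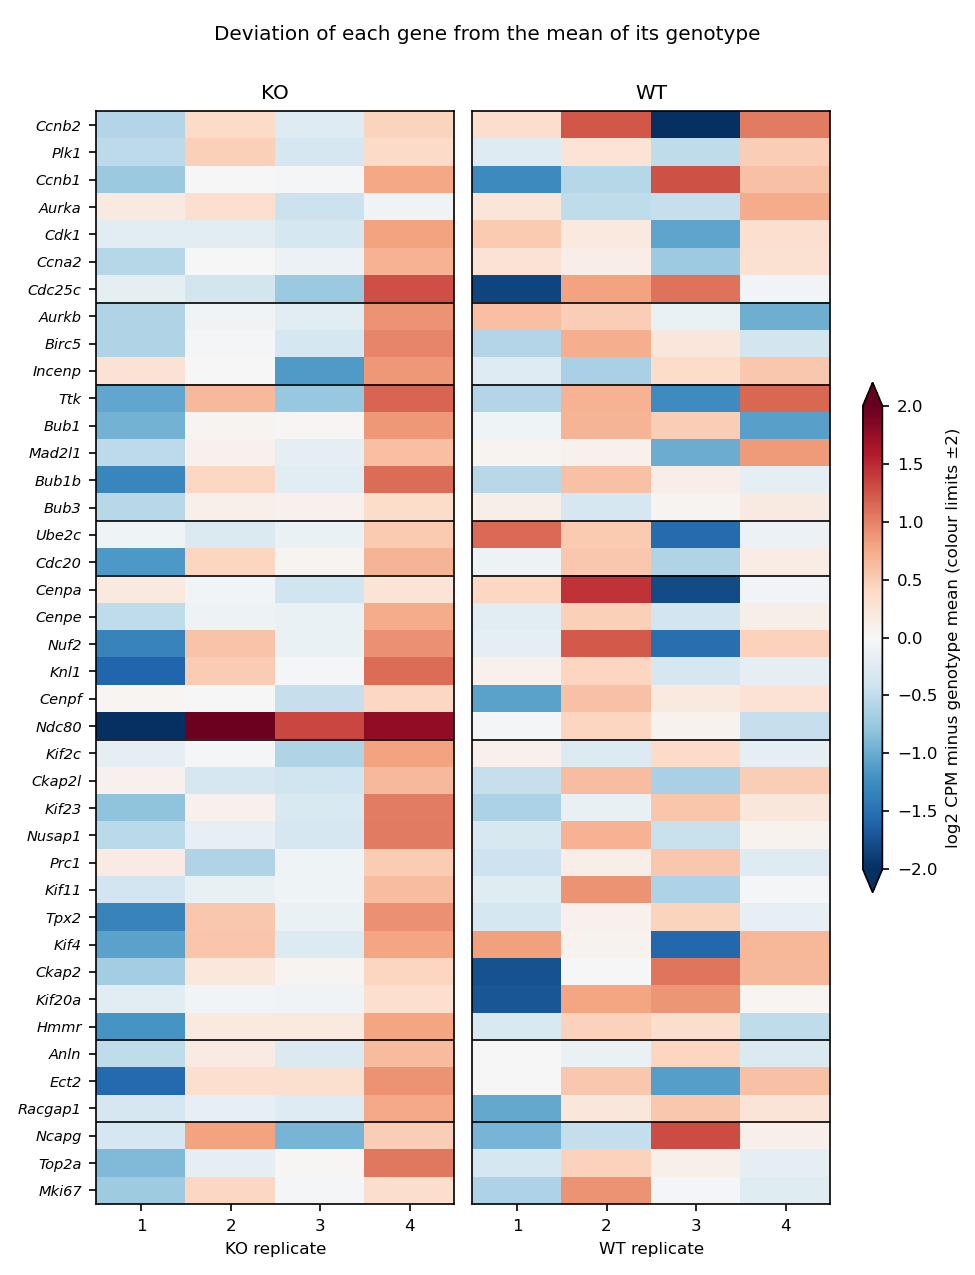
Deviation of each of the 40 genes from the mean of its genotype in log2 CPM, with the 4 KO libraries on the left and the 4 WT libraries on the right and lines between roles. In KO the column of replicate 4 is above the mean for 39 genes and that of replicate 1 below it for 34. In WT the column of replicate 2 is above the mean for 32 genes and that of replicate 1 below it for 28.

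Other genes of mitosis, listed by function but with earlier results of these data known, had a lower median in the same direction. The difference between the lists was not tested. Of 114 such genes 1 was called higher and 0 lower, and their median log2 fold change was 0.48. The gene called was Tuba1b, an alpha-tubulin, with 204, 217, 224 and 342 CPM in KO replicates 1 to 4, against 151, 141, 133 and 131 CPM in WT replicates 1 to 4 (log2 fold change 0.83, SE 0.17, edgeR adjusted p = 0.0113). All KO libraries were above all WT libraries for it, and KO replicate 4 was the highest here too. By list, 0 of 37 further centromere and kinetochore genes were called (median 0.51, smallest edgeR adjusted p 0.182 for Zwilch), 1 of 32 further spindle and centrosome genes (median 0.55), 0 of 7 further condensin genes (median 0.41, 0.0829 for Smc4) and 0 of 22 further regulators of entry (median 0.74, 0.0732 for Hmgb2). The 16 other genes of the anaphase-promoting complex and its regulators had a median of 0.03 with 0 called (smallest edgeR adjusted p 0.145, for Cdc26). The 2 members among the 40 that act with this complex, Ube2c and Cdc20, had 1.43 and 0.83.

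Genes of neighbouring cell cycle steps gave a mixed picture. DNA replication genes, active in the S phase before G2, had 4 of 44 called higher and 0 lower, and the median log2 fold change was 0.86, beside 0.85 for the mitotic genes. Examples are Mcm6, a helicase subunit, at 128, 134, 135 and 201 CPM in KO replicates 1 to 4, against 56.1, 88.6, 64.3 and 65.4 CPM in WT replicates 1 to 4 (edgeR adjusted p = 0.00467), Rrm1 (0.0185) and Uhrf1 (0.0371). KO replicate 4 was the highest KO library for 38 of those 44 genes and KO replicate 1 the lowest for 32, and Kendall's W was 0.638 in KO and 0.0388 in WT. Of 14 tested G1 cyclins and cyclin-dependent kinase inhibitors 2 were called higher, Ccnd1 (log2 fold change 1.14, edgeR adjusted p = 0.00333) and its kinase Cdk4 (0.79, edgeR adjusted p = 0.0218), and the list's median was 0.20. The RB, E2F and DREAM genes, whose complexes hold or release cell cycle promoters, had 0 of 21 called and a median of 0.08 (smallest edgeR adjusted p 0.110, for E2f1).

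**Figure D5:**
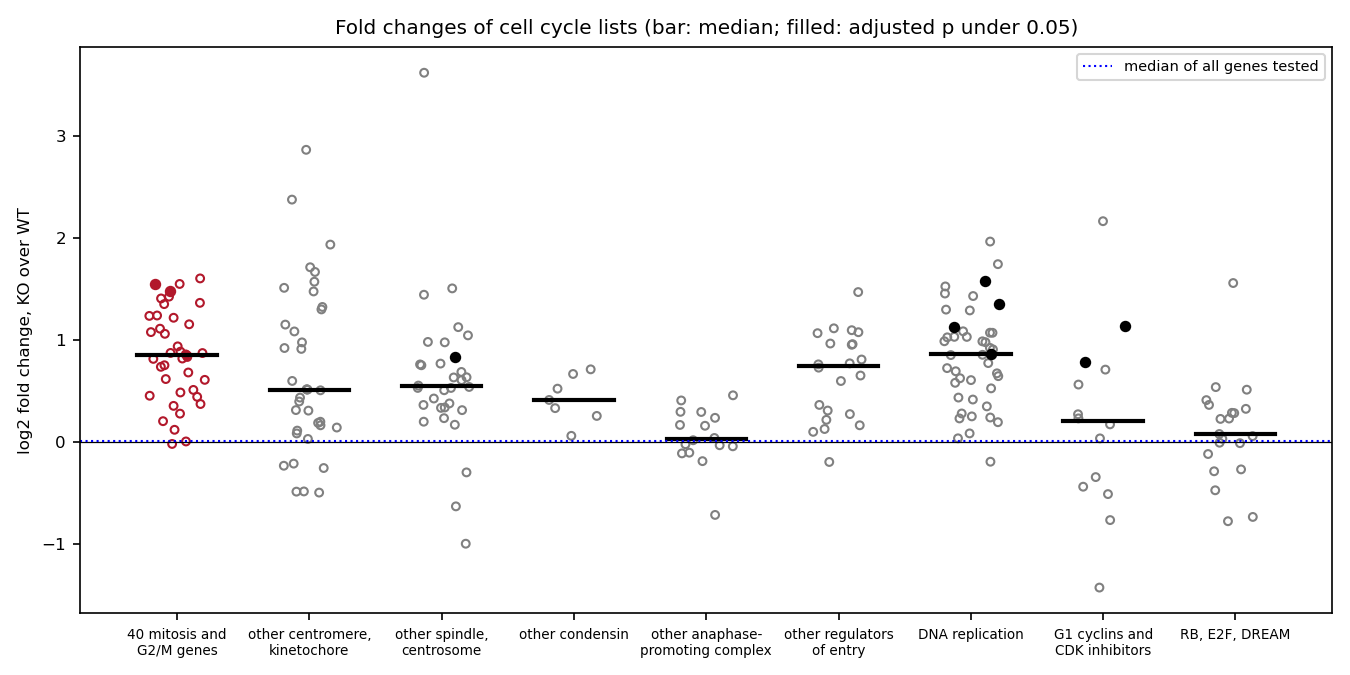
Log2 fold change of KO over WT for each tested gene of the 40 and of 8 further cell cycle lists, with the median of each as a bar, the median of all genes as a dotted line and filled points at an adjusted p under 0.05. The medians run from 0.03 for the other anaphase-promoting complex genes to 0.86 for DNA replication, and that of the 40 genes is 0.85.

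Cdkn1a encodes p21, an inhibitor of cyclin-dependent kinases, and is named here after its values were seen. It had 653, 218, 310 and 171 CPM in KO replicates 1 to 4, against 37.8, 132, 55.8 and 75.0 CPM in WT replicates 1 to 4. All KO libraries were above all WT libraries, and within KO its order, replicate 1 above 3 above 2 above 4, was the reverse of that of the checkpoint and cytokinesis genes. The log2 fold change was 2.17 (SE 0.56, edgeR adjusted p = 0.0980). KO replicate 1, the library with the lowest Uqcrq level, had the highest Cdkn1a level and the lowest level of 29 of the 40 genes. With 4 libraries no relation between these measures was tested.

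Markers of the sorted cells and of other lung cells were read beside these results. The 10 endothelial markers summed to 13640 to 17872 CPM in KO and 15156 to 18043 CPM in WT, so the labelled cell type was present in every library. Tek and Erg were called lower and Eng higher in KO. The 12 epithelial markers, mostly the surfactant gene Sftpc, summed to 3526, 10244, 15630 and 6464 CPM in KO replicates 1 to 4 and to 20816, 3544, 9065 and 15869 CPM in WT replicates 1 to 4. They exceeded the endothelial sum in KO replicate 3 (15174 CPM), WT replicate 1 (16125 CPM) and WT replicate 4 (15156 CPM). Sftpc alone reached 15320 CPM in WT, and sums over different genes do not give shares of cells. In KO the order of the epithelial sums matched that of the mitotic genes in part. KO replicate 1 was the lowest in both and KO replicate 2 next to the highest in both. KO replicate 4 was the highest for the mitotic genes, whereas KO replicate 3 had the most epithelial signal. In WT the library with the least epithelial signal, WT replicate 2, had the highest sum of the 40 genes. Sums over 12 leukocyte markers were 399 to 1498 CPM in KO and 417 to 2009 CPM in WT, nearly all of it Lyz2, while Ptprc, the leukocyte surface protein CD45, was at 9.37 CPM or less everywhere. Fibroblast and mural cell markers summed to 352 to 1495 CPM in KO and 305 to 1636 CPM in WT, and lymphatic endothelial markers to 1165 to 2281 CPM in KO and 1186 to 2423 CPM in WT. The 9 erythroid markers found summed to 28.5 to 75.5 CPM in KO and 23.8 to 68.0 CPM in WT, with Klf1 at 0 in every library. The part of any of these cells in the level of the mitotic genes was not tested.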

How the data were processed

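RNA-seq counts of 8 libraries, 4 KO and 4 WT, were analysed, with groups and replicate numbers read from the sample labels. The tools named, without versions, are bcl2fastq, TopHat, HTSeq and edgeR, and the build is mm10, per the submitters' processing notes. The authors deposited raw whole-number counts for each gene and library. Neither annotation release nor strand setting is given in the sources used here, and overlapping genes on opposite strands therefore cannot be told apart. Symbols from the GENCODE annotation of GRCm38 matched 42462 of 43430 IDs, and the other 968 IDs took at most 0.101% of a library's counts. All 8 value columns matched a label.

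Library sizes were scaled by TMM, and filterByExpr, at a minimum count of 10 and a minimum total of 15, kept 12689 genes. KO libraries were compared with WT libraries by edgeR 4.0.16 in R 4.3.3 (quasi-likelihood F test, robust, genotype alone), with Benjamini-Hochberg adjustment over all genes tested at 0.05. SE was derived from the F statistic, and the common biological coefficient of variation was 63.5%. Log2 CPM used a prior count of 2. Reads carry no molecular identifiers, so the limit of 3 counts for a gene at 0 covers counting error only. Replicates of a group differed by more than sampling noise, at a chi-square of 35.3 to 80.5 per degree of freedom. The scripts were tested on simulated counts with 200 changed genes. Alternatives included DESeq2 1.42.0, limma 3.58.1 (voom), a replicate block and leaving out each library.

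The members and all lists were chosen with earlier results of these data known. Values in every library are given for members that passed, for the member with the smallest p in each role, and for Mki67, Top2a, Cdk1, Ccnb1 and Bub3. From each other list up to 3 genes that passed are named, or otherwise the 1 with the smallest p. Genes outside this rule are named with ranges or marked. Promoter stretches are from RefSeq (GRCm38.p6), 250 bases before to 50 after the start.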

Additional observations from a re-analysis of the deposited data

Results flagged for a closer look

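For 4 of the 40 genes, 1 library of a group of 4 stood apart from the other 3 by a test for outlying values (Dixon's ratio of gap to range), and in each case it was KO replicate 4 with the highest level. Cdk1 was at 118 CPM there and at 53.1 to 58.4 CPM in the other KO libraries. Cdc25c was at 16.4 CPM, with 3.88 to 5.81 CPM in the others. Racgap1 was at 146 CPM, with 68.9 to 77.4 CPM in the others. Nusap1 was at 78.2 CPM, with 25.9 to 33.7 CPM in the others. A total of 82 groups of values were screened, of which chance marks about 1 in 20, and the 4 flagged are near that share. KO replicate 4 was also the highest KO library for 35 of the 40 genes, and what sets it apart was not tested.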

How the results depend on the processing

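The median log2 fold change of the 40 genes stayed above 0 in 19 of 19 alternatives, and 0 members were called lower in each, while the number called higher varied. Against 2 members called higher, 6 were called with no low-count filter (2.03% of all genes), 5 by DESeq2, 0 by limma voom, 11 by edgeR with legacy = FALSE (3.55%), 0 with each library's trend on length and GC content removed (0.583%) and 5 with both KO replicate 1 and WT replicate 3 left out. Leaving out 1 library at a time gave 0 to 6. Against 1 other mitosis gene called higher, those counts were 4 with no filter, 4 by DESeq2, 2 by limma voom with sample weights, 6 with legacy = FALSE, 0 with the trend removed and 3 with both libraries left out, and 1 to 3 when 1 library was left out. Other mitosis genes called lower numbered 1 with no filter, 1 by DESeq2 and 0 to 1 when 1 library was left out. Plk1 passed in 12 of the 19 alternatives and Ckap2l in 8, and the log2 fold change of Bub3 turned to -0.022 without KO replicate 4, was at most 0.27 with 1 library left out (KO replicate 1) and was 0.29 with both KO replicate 1 and WT replicate 3 left out. Kendall's W, recomputed without each library after the data were seen, ran from 0.398 to 0.788 in KO and from 0.0494 to 0.182 in WT. Over all genes, 285 higher and 176 lower became 74 and 116 with the trend removed, 450 and 296 with legacy = FALSE, 417 and 371 by DESeq2, and 173 to 259 higher and 97 to 187 lower when 1 library was left out. Why the calls moved was not tested.

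No sign of pairing by replicate number was seen: same-numbered KO and WT libraries had correlations of -0.10, -0.10, -0.01 and 0.00 between their deviations from the group means. KO replicate 1 and WT replicate 3 lay apart over all genes, so these correlations cannot settle whether libraries were paired. With the replicate number as a block 2 members and 1 other mitosis gene were called higher, as without it, and the median log2 fold change was 0.82.

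With 4 libraries a group and a coefficient of variation of 63.5% between libraries, most differences of the size seen here did not pass, which does not show that the levels are equal. WT replicate 3 had the fewest counts, so its low levels, such as the 13 counts of Ccnb2, are the least certain. Low levels in KO replicate 1 also call for care. It had a count for 12301 genes and WT replicate 3 for 11813, against 13302 to 14916 in the other libraries. Why KO replicate 1 had so few was not tested.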
